A study of Homo sapiens with 8 samples.

Results

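The SLC25 genes encode the mitochondrial carrier family, and their transcripts were followed here in the MDA231 breast cancer line and in 2 sublines with a defective respiratory complex II. Members were all protein-coding genes whose symbol starts with SLC25A and a digit, which gave 48 genes of the 58051 in the count files. Of these, 27 were measured, meaning that their mean normalized count over all samples was above 5. A further 13 had at least 1 count but fell below this minimum, and 8 had 0 counts in every sample.

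Most carriers of this family sit in the inner mitochondrial membrane, where they exchange or import small groups of solutes between the cytosol and the matrix. They bring ADP and phosphate in for ATP synthesis, move citrate, malate and 2-oxoglutarate between the tricarboxylic acid cycle and cytosolic metabolism, and supply the matrix with amino acids, nucleotides, cofactors and iron. Complex II, or succinate dehydrogenase, oxidises succinate to fumarate in the same cycle and passes the electrons to the respiratory chain. SDHA is its catalytic subunit and SDHB its iron-sulfur subunit.

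The groups were compared by 3' mRNA sequencing, which reads the ends of polyadenylated transcripts. Unmodified parental MDA231 cells gave 2 samples. SDHBKO cells, which carry an SDHB knockout made with a TALEN nuclease against exon 1 and were selected with hygromycin, gave 3 samples. SDHBKOSDHAlow cells, made from SDHBKO cells by stable transfection with a short hairpin RNA against SDHA and selection with puromycin, gave 3 samples. None of the samples received any other treatment. Whether the numbered replicates are separate clones or cultures is not stated in the labels, so that p-values measure the spread between these samples. Effects of the genotype, of the selection drug and of the origin of each subline cannot be told apart.

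The files held 773042 to 1427141 counts on genes per sample, of which 3019 to 5961 lay on SLC25 genes. Levels are given as CPM, the counts scaled to a common total over the tested genes with TMM, a correction for differences in library composition. Reads without a gene made up 25.98% to 28.6% of the SDHBKO files and 18.8% to 24.4% of the other 5, so that this share moved with the group, and its part in the results was not tested. A count of 3 equalled 2.24 to 4.11 CPM. SDHA counts were 64 and 69 in parental cells, 108, 121 and 140 in SDHBKO cells, and 7, 17 and 16 in SDHBKOSDHAlow cells. The knockdown was therefore visible in all 3 SDHBKOSDHAlow samples, with a log2 fold change of -3.46 ± 0.28 (SE) against SDHBKO cells (adjusted p = 1.2e-07). SDHB had 0 to 4 counts per sample, below the minimum, and its 3' reads lie away from the edited exon, so that they do not check the knockout. VIM and CD44, mesenchymal markers of this line, were present in every sample, and the hormone receptor genes ESR1 and PGR had 0 counts in all of them. The epithelial genes EPCAM and CDH1 had 0 to 1 and 0 to 2 counts per sample, while ERBB2 had 15 to 25.

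A few carriers made up most of the family. In 3' libraries each transcript gives about 1 fragment whatever its length, so that CPM was used as a level without dividing by length. The sum of all 48 members was 4011 ± 264 CPM (SD, n = 2) in parental, 4084 ± 177 CPM (SD, n = 3) in SDHBKO and 4243 ± 188 CPM (SD, n = 3) in SDHBKOSDHAlow cells, and the samples of the 3 groups overlapped. SLC25A6, an ADP/ATP carrier, took 29.5% of this sum over the 8 samples, and SLC25A3, the phosphate carrier, took 23.3%. SLC25A5 followed with 8.39%, SLC25A1 with 7.47% and SLC25A39 with 6.36%. The 11 most abundant members together held 90.02%.

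By substrate class, carriers of adenine nucleotides and phosphate held 63.8% of the family sum, those of di- and tricarboxylates 13.7%, and those of amino acids and glutathione 13.1%. Iron carriers held 4.51% and cofactor carriers 3.17%, while each of the other classes held less than 1%. The summed level of the di- and tricarboxylate carriers differed between groups, at 715 and 727 CPM in the parental samples, 479, 501 and 517 CPM in SDHBKO, and 486, 535 and 563 CPM in SDHBKOSDHAlow. Both parental samples thus lay above all 6 samples of the sublines, whose ranges overlapped each other. The sum hides opposite changes of its 2 largest members. Mean levels in parental, SDHBKO and SDHBKOSDHAlow cells were 469, 164 and 346 CPM for SLC25A1, and 150, 277 and 119 CPM for SLC25A11. For the adenine nucleotide and phosphate class the sums were 2181 and 2504 CPM in parental cells, 2405 to 2831 CPM in SDHBKO and 2614 to 3049 CPM in SDHBKOSDHAlow cells, and both parental samples were below all SDHBKOSDHAlow samples. No test was made on these sums. The plot of summed levels shows these classes sample by sample.

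**Figure D1:**
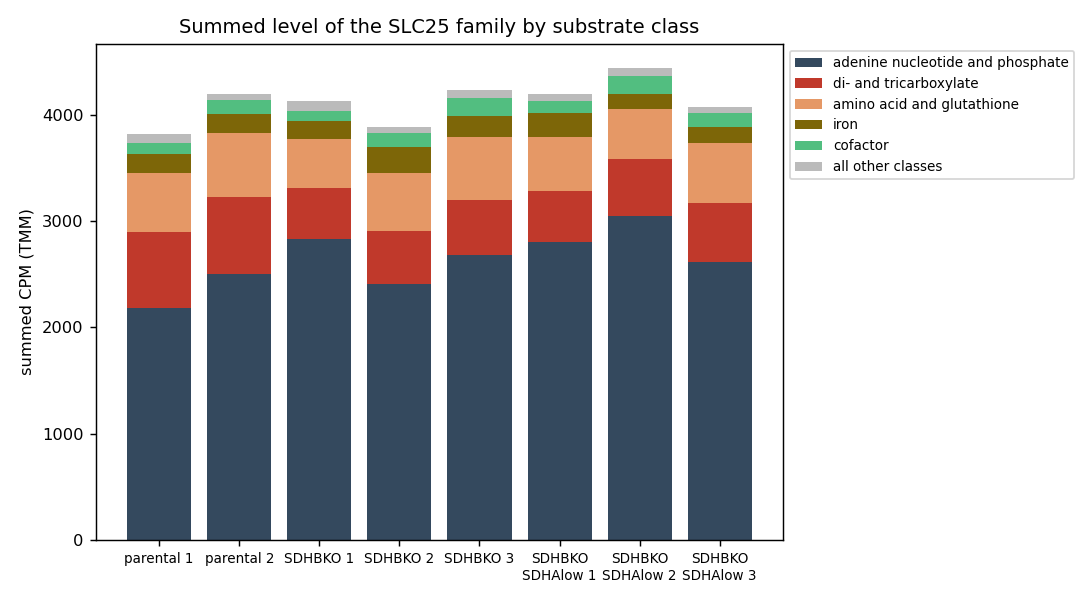
Summed CPM of the SLC25 genes in each of the 8 samples, stacked by substrate class, from 0. The di- and tricarboxylate segment spans 715 to 727 CPM in the parental samples and 479 to 563 CPM in the 6 samples of the sublines, while the whole bars differ little, from 3825 to 4448 CPM.

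Between SDHBKO and parental cells 7 of the 27 measured members changed. This is 25.9% of the measured members, beside 5.54% of the 7550 tested genes, in edgeR's quasi-likelihood test at an adjusted p below 0.1. The 7 comprised 4 higher and 3 lower members, beside 3.14% and 2.4% of all tested genes. In bulk RNA, fewer cells with a transcript and less of it per cell cannot be told apart. SLC25A1, SLC25A10 and SLC25A22 were lower and SLC25A5, SLC25A11, SLC25A23 and SLC25A28 were higher in SDHBKO cells, and for each of the 7 the SDHBKO and parental samples did not overlap. Of the 7, DESeq2 called SLC25A1, SLC25A5 and SLC25A11. It did not call SLC25A10 and gave SLC25A22, SLC25A23 and SLC25A28 no adjusted p. Non-overlap was found for 12 of the 27 measured members (44.4%), beside 37.9% of all tested genes. The fitted change was above 0 for 12 of the 27, beside 49.9% of all tested genes, and the median log2 fold change was -0.065 over the measured members and -0.00072 over all tested genes.

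When SDHA was knocked down in addition, 2 of the 27 measured members passed the test against SDHBKO cells (7.41%, beside 1.51% of all tested genes). SLC25A1 was higher (0.318% of all tested genes were) and SLC25A11 lower (1.19%), in both cases opposite to their difference between SDHBKO and parental cells. The SDHBKO samples enter both comparisons, so that these opposite signs are not independent of each other. Samples of the 2 groups did not overlap for 6 members (22.2%, beside 17.4% of all tested genes), and the fitted change was above 0 for 16 of 27 (51.1% of all tested genes), with a median of 0.17 against 0.013 for all tested genes. Between SDHBKOSDHAlow and parental cells 1 member, SLC25A5, passed the test and was higher (3.7%, beside 0.914% of all tested genes in either direction, 0.225% higher and 0.689% lower). Samples did not overlap for 9 members (33.3%, beside 30.7%). The fitted change was above 0 for 18 of 27 (51.4% of all tested genes), and the medians were 0.11 and 0.017.

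**Figure D2:**
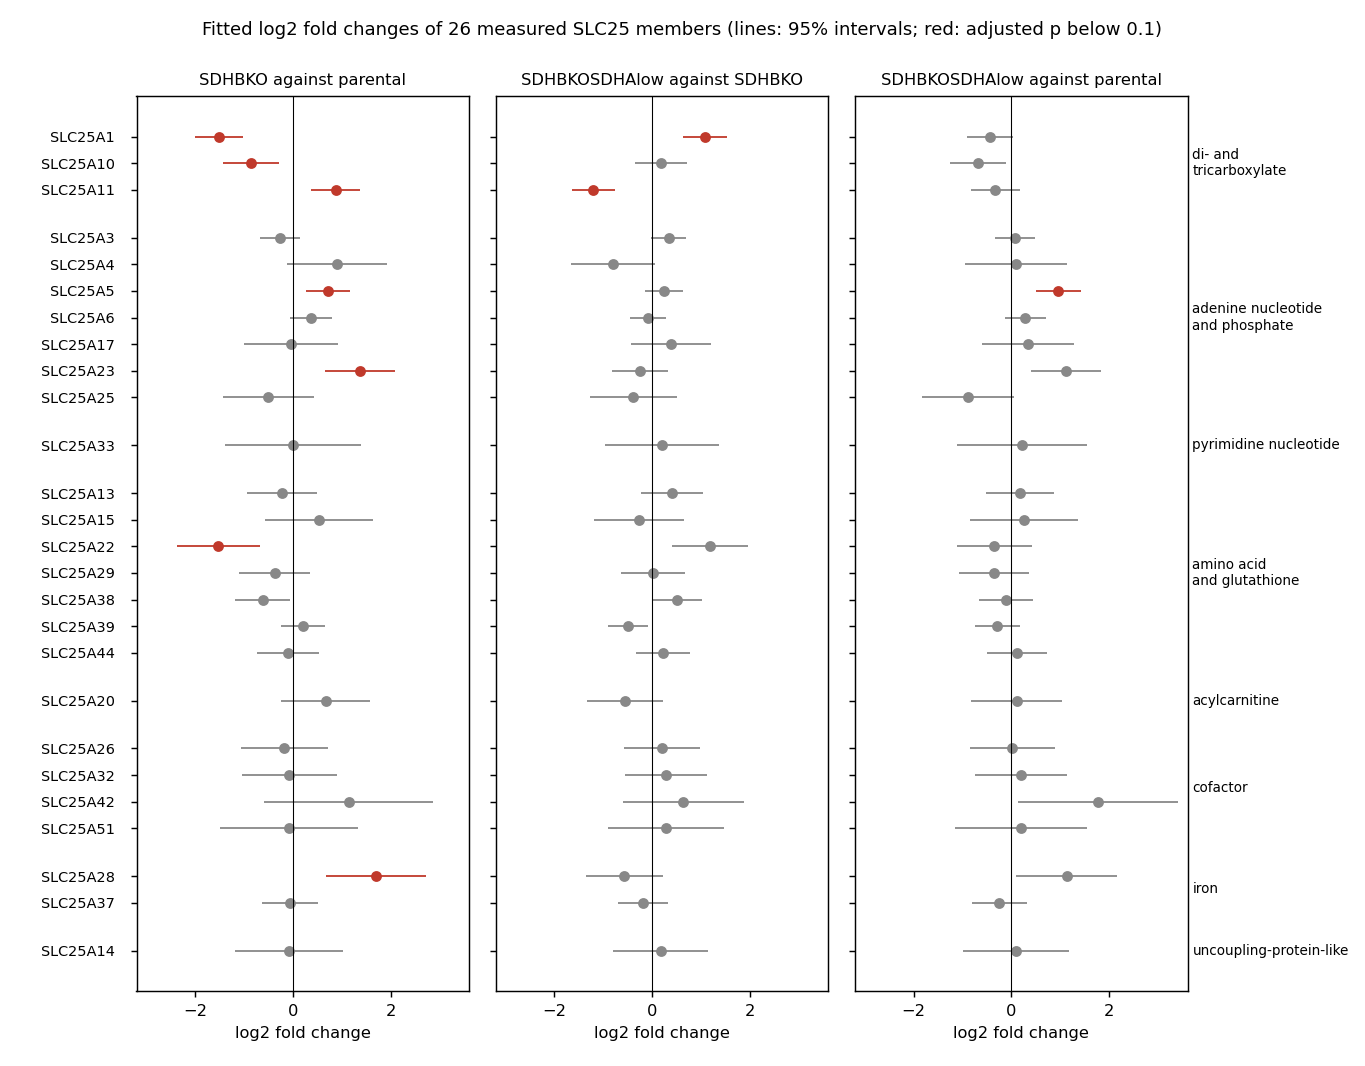
Fitted log2 fold changes of 26 measured members by substrate class in the 3 comparisons, with lines for 95% intervals and red for an adjusted p below 0.1. Red points number 7 in SDHBKO against parental, 2 in SDHBKOSDHAlow against SDHBKO and 1 in SDHBKOSDHAlow against parental, and 5 of these 10 belong to SLC25A1, SLC25A10 and SLC25A11.

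In the di- and tricarboxylate class edgeR called all 3 measured members in SDHBKO cells (5.54% of all tested genes), and DESeq2 called SLC25A1 and SLC25A11. SLC25A1 is the citrate carrier, which exports citrate from the matrix for cytosolic acetyl-CoA and lipid synthesis. SLC25A11 exchanges 2-oxoglutarate for malate in the malate-aspartate shuttle, and SLC25A10, the dicarboxylate carrier, exchanges malate or succinate for phosphate. The fourth member, SLC25A21, a carrier of oxodicarboxylates, had 0 to 5 counts per sample and was not tested.

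SLC25A1 (ENSG00000100075, GRCh38 chr22:19175581-19178739, minus strand, 9 exons) stood at 442 and 496 CPM in parental cells. It was at 120, 210 and 161 CPM in SDHBKO and at 296, 347 and 395 CPM in SDHBKOSDHAlow cells. The 3 groups formed 3 separate ranges, with SDHBKOSDHAlow cells between the other two. It fell to 0.350 of the parental level in SDHBKO cells, with a log2 fold change of -1.51 ± 0.23 (SE; 95% interval -1.998 to -1.03; adjusted p = 0.0027). From SDHBKO to SDHBKOSDHAlow cells it rose 2.104-fold, or 1.07 ± 0.21 on the log2 scale (95% interval 0.63 to 1.52; adjusted p = 0.014). The remaining difference of SDHBKOSDHAlow from parental cells, -0.44 on the log2 scale (95% interval -0.92 to 0.037), did not pass the test (adjusted p = 0.45).

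SLC25A11 (ENSG00000108528, GRCh38 chr17:4937130-4940053, minus strand, 8 exons) ran the other way. It stood at 165 and 135 CPM in parental cells, at 291, 231 and 308 CPM in SDHBKO cells, and at 120, 143 and 95.8 CPM in SDHBKOSDHAlow cells. All SDHBKO samples were above all samples of the other groups, which overlapped. The level rose 1.84-fold in SDHBKO cells (log2 fold change 0.88 ± 0.24, SE; 95% interval 0.37 to 1.38; adjusted p = 0.058). In SDHBKOSDHAlow cells it fell to 0.433 of the SDHBKO level (log2 fold change -1.21 ± 0.21, SE; 95% interval -1.65 to -0.76; adjusted p = 0.0071). Against parental cells the SDHBKOSDHAlow level differed by -0.33 (95% interval -0.83 to 0.17; adjusted p = 0.62).

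Since both genes were counted in the same libraries, their ratio does not depend on the scaling between libraries. There were 2.67 and 3.67 SLC25A1 counts for each SLC25A11 count in parental cells, 0.413, 0.909 and 0.523 in SDHBKO cells, and 2.48, 2.44 and 4.12 in SDHBKOSDHAlow cells. All SDHBKO values were below 1 and all others above 2.4. A ratio does not say how each gene contributed. Both genes were called in opposite directions in these same samples, so that the ratio restates those calls and is no separate support.

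The stretches of 250 bases before the RefSeq start of these 2 genes are shown because they are the members that passed the test in 2 comparisons in opposite directions. They come from RefSeq on GRCh38.p14 and are written 5' to 3' on the strand of the gene, with capitals for a GC box (GGGCGG) or a CCAAT box (CCAAT) on either strand. The first lies at chr22:19178737-19178986 on the minus strand and holds 8 GC boxes, of which the last pair share a base, and 1 CCAAT box. The second lies at chr17:4940047-4940296 on the minus strand and holds neither.
SLC25A1: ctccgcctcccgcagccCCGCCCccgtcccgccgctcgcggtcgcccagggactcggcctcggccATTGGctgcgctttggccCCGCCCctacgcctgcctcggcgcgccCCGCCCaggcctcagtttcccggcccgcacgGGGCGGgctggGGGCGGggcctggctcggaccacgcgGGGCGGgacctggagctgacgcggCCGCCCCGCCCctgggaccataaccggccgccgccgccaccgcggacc
SLC25A11: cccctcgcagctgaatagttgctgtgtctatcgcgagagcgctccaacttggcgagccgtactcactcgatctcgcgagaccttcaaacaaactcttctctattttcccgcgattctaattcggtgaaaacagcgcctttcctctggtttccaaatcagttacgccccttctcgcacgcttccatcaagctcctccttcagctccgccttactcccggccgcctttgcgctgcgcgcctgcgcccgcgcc
The first sequence has a GC content of 81.6% and the second of 57.6%, beside a median of 70.8% over the 24 measured members with a RefSeq entry and 66% over the promoters of tested genes. A GC box occurs in 75% of the promoters of these 24 members and in 71.5% of the promoters of tested genes, so that the absence of one in SLC25A11 puts it in the minority. A CCAAT box occurs in 54.2% and 36.2%, respectively. The other motifs searched on both strands were an E-box (CACGTG), the NRF1 motif, an ETS motif (CCGGAAG), the ERR motif (AAGGTCA), a sterol response element (TCACNCCAC), the YY1 motif (AAGATGGC) and the CArG box, and none of these letters occur in the promoter windows of the 7 members that changed.

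SLC25A10 (ENSG00000183048, GRCh38 chr17:81712236-81721016, plus strand, 11 exons) had 106 and 92.9 CPM in parental cells, 60.2, 57.8 and 47.5 CPM in SDHBKO cells, and 71.2, 44.8 and 72.4 CPM in SDHBKOSDHAlow cells. Both parental samples were above all samples of the sublines. The fall in SDHBKO cells was -0.86 ± 0.28 (SE) on the log2 scale (95% interval -1.43 to -0.28; adjusted p = 0.099), just under the threshold. It kept its call in 4 of 14 alternatives and missed it by DESeq2 (adjusted p = 0.10), with adjusted p from 0.036 to 0.58 over the 14. The difference between SDHBKOSDHAlow and SDHBKO cells was 0.17 (95% interval -0.36 to 0.71), and that between SDHBKOSDHAlow and parental cells was -0.68 (95% interval -1.25 to -0.12; adjusted p = 0.29), so that neither a return to the parental level nor its absence was shown at this depth. An unnamed gene overlaps its last exon on the same strand and had 0 counts in every sample. Ambiguous reads stayed out of the counts of both genes, so that these 0 counts do not show whether reads of SLC25A10 were lost there.

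**Figure D3:**
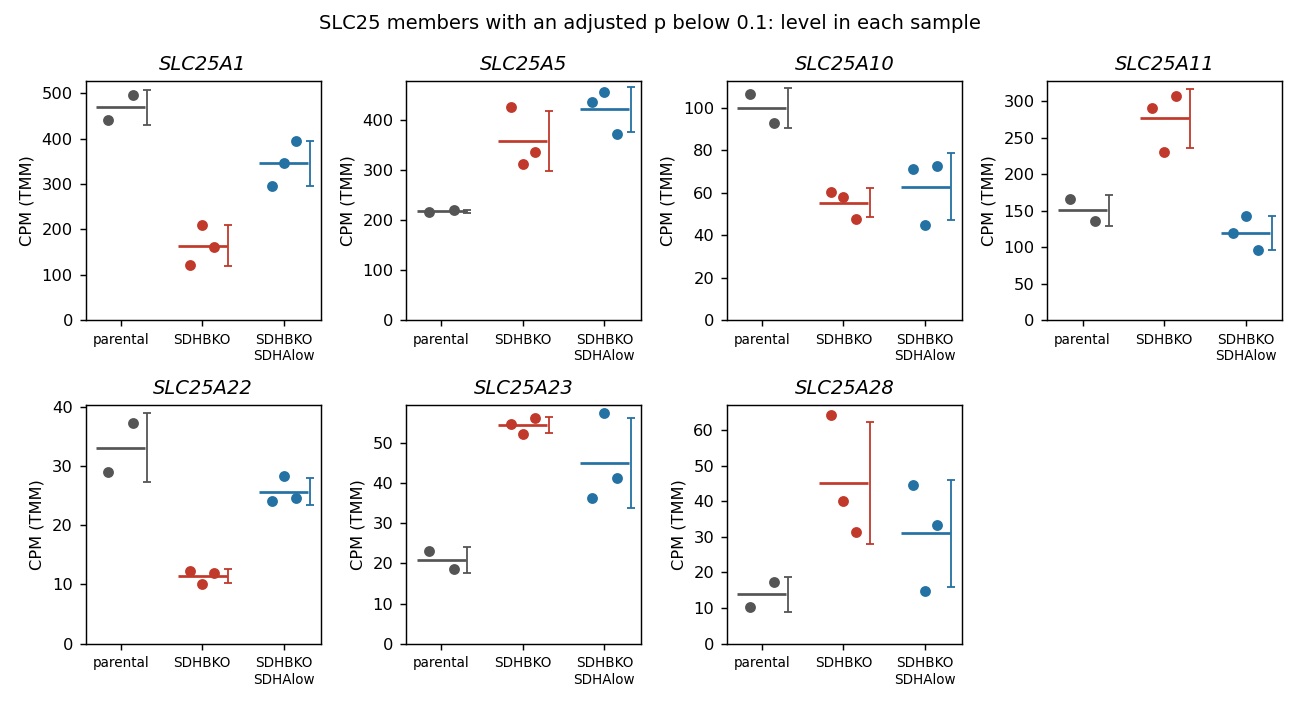
CPM of the 7 members that passed the test in at least 1 comparison, with a point for each sample, a horizontal line for the group mean and a bar for ± 1 SD (n = 2 parental, 3 SDHBKO, 3 SDHBKOSDHAlow), each axis from 0. SLC25A1 and SLC25A22 are lowest and SLC25A11 is highest in SDHBKO cells, while SLC25A5 is lowest and SLC25A10 highest in parental cells.

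None of the tested enzymes that work with these carriers passed the test. The list held 12 enzymes of citrate use and the malate-aspartate shuttle, of which 10 were tested, and edgeR called 0 in each comparison. Of all tested genes edgeR called 5.54% in SDHBKO against parental, 1.51% in SDHBKOSDHAlow against SDHBKO and 0.914% in SDHBKOSDHAlow against parental. With only 10 genes, the absence of calls does not set these enzymes apart from all tested genes. At an unadjusted p below 0.05 there was 1 in SDHBKO against parental (MDH2), 2 in SDHBKOSDHAlow against SDHBKO (ACLY, IDH2) and 0 in SDHBKOSDHAlow against parental, and DESeq2 called 0 of the 8 with an adjusted p. The median log2 fold changes were -0.16, 0.087 and 0.12 in these comparisons.

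Within 1000 kb on either side of SLC25A11 lie 24 other tested genes. Their median log2 fold change was 0.18 in SDHBKO against parental, with fitted values above 0 for 15 of 24 (49.9% of all tested genes) and 0 called (5.54%). Between SDHBKOSDHAlow and SDHBKO cells their median was -0.35, fitted values were above 0 for 3 of 24 (51.1% of all tested genes), and 2 were called lower (1.19%), CYB5D2 (-1.41, adjusted p = 0.049) and CAMTA2 (-1.17, adjusted p = 0.012). The part of this region in the change of SLC25A11 was not tested. Around SLC25A1, the 18 other tested genes had medians of -0.12 and 0.30 in the same comparisons, with 1 called in the first and 0 in the second.

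Among carriers of adenine nucleotides and phosphate, 2 of the 7 measured members were higher in SDHBKO cells (3.14% of all tested genes were) and none was lower (2.4%). SLC25A4, SLC25A5 and SLC25A6 are ADP/ATP carriers, which export the ATP made in the matrix, and SLC25A23 and SLC25A25 are calcium-regulated ATP-Mg/phosphate carriers. SLC25A17 is a peroxisomal member of the family. The class median was 0.37 in SDHBKO against parental, -0.089 in SDHBKOSDHAlow against SDHBKO and 0.28 in SDHBKOSDHAlow against parental. In the second of these edgeR and DESeq2 each called 0 members (edgeR called 1.51% of all tested genes), with 0 also at an unadjusted p below 0.05. Of the 7, 5 had an adjusted p in DESeq2 there.

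SLC25A5 (ENSG00000005022, GRCh38 chrX:119468422-119471396, plus strand, 4 exons) was at 215 and 219 CPM in parental, 426, 311 and 336 CPM in SDHBKO and 437, 455 and 371 CPM in SDHBKOSDHAlow cells. All 6 samples of the sublines were above both parental samples. It rose by 0.72 ± 0.22 (SE) on the log2 scale in SDHBKO cells (95% interval 0.26 to 1.17; adjusted p = 0.085) and by 0.96 ± 0.22 in SDHBKOSDHAlow cells (95% interval 0.50 to 1.41; adjusted p = 0.070), both against parental cells. The sublines differed from each other by 0.24 (95% interval -0.15 to 0.63; adjusted p = 0.65).

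SLC25A6 lies in the pseudoautosomal region, and its X copy was the one counted. It had the highest mean level of the family in each group, in parental cells within the spread of SLC25A3 (1005 ± 111 CPM, SD, n = 2), at 1025 ± 120 CPM (SD, n = 2) in parental, 1323 ± 162 CPM (SD, n = 3) in SDHBKO and 1244 ± 154 CPM (SD, n = 3) in SDHBKOSDHAlow cells. Its log2 fold change in SDHBKO cells was 0.37 (95% interval -0.054 to 0.79; adjusted p = 0.36), which did not pass although the samples did not overlap. For each SLC25A6 count there were 0.229 and 0.197 counts of SLC25A5 in parental cells, 0.228 to 0.317 in SDHBKO and 0.322 to 0.364 in SDHBKOSDHAlow cells, the highest ratios of the 3 groups. SLC25A4, the form typical of heart and muscle, was low, at 11.6 and 13.3 CPM in parental cells, 16.2 to 27.8 CPM in SDHBKO and 9.65 to 17.9 CPM in SDHBKOSDHAlow cells. Its log2 fold changes of 0.90 in SDHBKO against parental (adjusted p = 0.35) and -0.80 in SDHBKOSDHAlow against SDHBKO (adjusted p = 0.44) did not pass. The germ cell form SLC25A31 had 0 counts in every sample. Processed copies of carrier genes are numerous in the genome, but all 43 SLC25 pseudogenes in the files had 0 counts, while reads mapping to several places had no gene in these tables.

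SLC25A3, second in level, was within 752 to 1083 CPM in all 8 samples, with log2 fold changes of -0.27 and 0.34 in SDHBKO against parental and SDHBKOSDHAlow against SDHBKO. Neither passed (adjusted p = 0.51 and 0.45), with 95% intervals of -0.67 to 0.14 and -0.026 to 0.70.

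SLC25A23 (ENSG00000125648, GRCh38 chr19:6436079-6465203, minus strand, 10 exons) was at 23.1 and 18.6 CPM in parental, 54.7, 52.2 and 56.1 CPM in SDHBKO and 36.2, 57.5 and 41.2 CPM in SDHBKOSDHAlow cells. It rose 2.58-fold in SDHBKO cells (log2 fold change 1.37 ± 0.35, SE; adjusted p = 0.039). In SDHBKOSDHAlow cells all samples were also above both parental samples, and the log2 fold change of 1.12 (95% interval 0.39 to 1.84) did not pass (adjusted p = 0.17). These values rest on 14 to 77 counts per sample. SLC25A25 went to lower values, at -0.50 and -0.89 against parental cells in SDHBKO and SDHBKOSDHAlow cells (adjusted p = 0.61 and 0.44). SLC25A24, another ATP-Mg/phosphate carrier, had 15 counts in parental replicate 1 and 0 to 6 in the other samples. Its mean normalized count of 4.66 was just below the minimum.

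Of the 7 measured amino acid and glutathione carriers, 1 was lower in SDHBKO cells (2.4% of all tested genes were) and none was higher (3.14%). SLC25A22 (ENSG00000177542, GRCh38 chr11:790475-798281, minus strand, 10 exons) imports glutamate into the matrix together with a proton. Parental cells gave 25 and 28 counts of it, SDHBKO cells 9, 9 and 11, and SDHBKOSDHAlow cells 20, 38 and 22. In CPM these were 28.9 and 37.2, then 12.3, 10.01 and 11.9, and then 24.1, 28.4 and 24.5. All SDHBKO samples were below all samples of the other groups. The highest SDHBKOSDHAlow sample (28.4 CPM) lay barely below the lowest parental one (28.9 CPM). The fitted difference between these 2 groups was -0.35 on the log2 scale (95% interval -1.12 to 0.42; adjusted p = 0.75), so that an intermediate level was not shown. SLC25A22 fell to 0.348 of the parental level in SDHBKO cells (log2 fold change -1.52 ± 0.41, SE; 95% interval -2.37 to -0.68; adjusted p = 0.050). The difference of 1.17 ± 0.37 (SE) between SDHBKOSDHAlow and SDHBKO cells (95% interval 0.40 to 1.95) had an unadjusted p of 0.0049 and did not pass after adjustment (adjusted p = 0.18). The other glutamate carrier, SLC25A18, had 0 counts in every sample.

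The other 6 measured members of this class had log2 fold changes of -0.62 to 0.52 in SDHBKO against parental cells, and none passed. SLC25A39, a glutathione carrier and the most abundant of the class, was at 266 ± 37.2 CPM (SD, n = 2) in parental, 305 ± 51.7 CPM (SD, n = 3) in SDHBKO and 217 ± 16.5 CPM (SD, n = 3) in SDHBKOSDHAlow cells. All SDHBKOSDHAlow samples lay below all samples of the other groups, and the log2 fold change against SDHBKO was -0.49 (95% interval -0.90 to -0.081; adjusted p = 0.31). SLC25A38, a glycine carrier used for heme synthesis, had values of -0.62 in SDHBKO against parental (adjusted p = 0.22) and 0.51 in SDHBKOSDHAlow against SDHBKO (adjusted p = 0.40). Of the aspartate/glutamate carriers, which complete the malate-aspartate shuttle, SLC25A13 was measured at 32.8 to 76.9 CPM and SLC25A12 had 0 to 3 counts per sample. SLC25A13 had log2 fold changes between -0.23 and 0.40 in the 3 comparisons. In the comparisons of SDHBKOSDHAlow with SDHBKO and with parental cells edgeR and DESeq2 called 0 of the class. Of all tested genes edgeR called 1.51% and 0.914% there, so that the absence of calls does not set the class apart. At an unadjusted p below 0.05 there were 3 and 0 members of the class. In both comparisons, 5 of the 7 had an adjusted p in DESeq2.

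Both iron carriers were measured, and 1 was called higher in SDHBKO cells (3.14% of all tested genes were). SLC25A28 (mitoferrin-2; ENSG00000155287, GRCh38 chr10:99610519-99622793, minus strand, 4 exons) was counted 9 and 13 times in the parental samples, 47, 36 and 29 times in SDHBKO, and 37, 20 and 30 times in SDHBKOSDHAlow. In CPM these were 10.4 and 17.3, then 64.3, 40.02 and 31.3, and then 44.7, 14.9 and 33.4. The SDHBKO samples were all above the parental ones, whereas SDHBKOSDHAlow cells overlapped both groups. It rose 3.25-fold in SDHBKO cells (log2 fold change 1.70 ± 0.49, SE; 95% interval 0.68 to 2.72; adjusted p = 0.068), the largest fitted rise among the measured members. Against parental cells the SDHBKOSDHAlow value was 1.13 (95% interval 0.092 to 2.16; adjusted p = 0.36). SLC25A37 (mitoferrin-1) was more abundant, at 154 CPM over all samples, and its log2 fold changes of -0.065, -0.18 and -0.25 did not pass (adjusted p of 0.76 or higher).

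In the remaining classes no measured member passed in any comparison by edgeR. These members were 5 cofactor carriers, the acylcarnitine carrier SLC25A20, the pyrimidine nucleotide carrier SLC25A33 and the uncoupling-protein-like SLC25A14. Over all tested genes edgeR called 5.54%, 1.51% and 0.914% in the 3 comparisons. With so few members, the absence of calls does not set these classes apart. At an unadjusted p below 0.05 there was 1 among these 8 members in 1 comparison, the coenzyme A carrier SLC25A42 in SDHBKOSDHAlow against parental cells. DESeq2 could call few of them, since 1, 2 and 1 of the 5 cofactor carriers had an adjusted p in the 3 comparisons. It gave none to SLC25A20, SLC25A33 and SLC25A14, and it called 0. SLC25A42 was just above the minimum (mean normalized count 6.40), with 4.63 and 1.33 CPM in parental, 2.74, 4.45 and 12.95 CPM in SDHBKO and 9.65, 10.45 and 12.3 CPM in SDHBKOSDHAlow cells. Its fitted log2 fold change of 1.77 against parental cells had an interval of 0.13 to 3.41 (adjusted p = 0.36). SLC25A51, the NAD carrier, was the other member just above the minimum (7.31).

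SLC25A20, which imports acylcarnitines for fatty acid oxidation, was at 11.6 and 19.9 CPM in parental, 22.7 to 28.7 CPM in SDHBKO and 14.9 to 18.1 CPM in SDHBKOSDHAlow cells. SDHBKO samples were above those of the other groups, and neither the log2 fold change of 0.66 against parental (adjusted p = 0.46) nor that of -0.56 in SDHBKOSDHAlow against SDHBKO (adjusted p = 0.58) passed. SLC25A33 had 4.46 to 16.9 CPM and SLC25A14 7.78 to 32.8 CPM, with fitted log2 fold changes within ± 0.21 in every comparison and 95% intervals that reached at least from -0.80 to 1.03. Of the cofactor class SLC25A16 was just below the minimum (4.73), with 0 to 8 counts per sample.

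Of the 21 members that were not measured, those with 0 counts throughout were SLC25A2, SLC25A18, SLC25A27, SLC25A31, SLC25A34, SLC25A47, SLC25A48 and SLC25A52. The other 13 reached at most 15 counts in any sample. All 8 members with no class assigned here were among the unmeasured ones. A count of 0 in a sample allows a level of up to 2.24 to 4.11 CPM, depending on the sample.

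In SDHBKO against parental cells the list of genes for the carrier import route held 1 called gene of 12 tested. This does not set the route apart from the 5.54% of all tested genes. Carriers are made in the cytosol and reach the inner membrane through the TOM complex, the small TIM chaperones and the TIM22 complex, and 12 of the 13 genes listed for this route were tested. TIMM8B, a small chaperone of the intermembrane space, was the 1 gene called in SDHBKO against parental cells, with 99 and 65 counts in parental, 125, 134 and 258 in SDHBKO and 115, 224 and 94 in SDHBKOSDHAlow cells (log2 fold change 0.99; adjusted p = 0.072). In the other comparisons edgeR and DESeq2 called 0 (edgeR called 1.51% and 0.914% of all tested genes), with 3 and 2 of the 12 at an unadjusted p below 0.05. There 10 and 9 of the 12 had an adjusted p in DESeq2. Of 19 other inner membrane transporters and carrier relatives 14 were tested and edgeR and DESeq2 called 0 in each comparison, with 1, 1 and 2 at an unadjusted p below 0.05. Of these 14, 6, 9 and 9 had an adjusted p in DESeq2. The 3 VDAC genes of the outer membrane pores were likewise not called by either tool, with 0, 1 and 0 at an unadjusted p below 0.05.

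Several calls were lost with 1 sample left out. SLC25A11 stayed below an adjusted p of 0.1 in SDHBKOSDHAlow against SDHBKO with any of the 8 samples left out, as did SLC25A1 except without SDHBKO replicate 1 (adjusted p = 0.12). In SDHBKO against parental, SLC25A1 kept its call except without parental replicate 1 (adjusted p = 0.11). The other 6 calls in that comparison were each lost without parental replicate 1, without parental replicate 2 and without SDHBKO replicate 1, where 0, 1 and 1 members and 0, 49 and 82 of all tested genes passed in place of 418. With any 1 sample left out the log2 fold changes ranged from -1.70 to -1.34 for SLC25A22 and from 1.23 to 1.54 for SLC25A23, for example. Without SDHBKO replicate 3, SLC25A1 and SLC25A28 passed, beside 150 of all tested genes. SLC25A5 in SDHBKOSDHAlow against parental was lost without either parental sample, without SDHBKO replicate 3 and without SDHBKOSDHAlow replicate 1. Without SDHBKOSDHAlow replicate 2, the deepest library, the members called in the 3 comparisons were 7, 2 and 1, beside 846, 375 and 173 of all tested genes in place of 418, 114 and 69. Leaving out a parental sample leaves 1 in that group, whose spread is then taken from the other groups. The direction of the 7 members was the same in each of these fits.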

How the data were processed

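RNA from 8 samples of MDA231 sublines was sequenced with the QuantSeq 3' mRNA kit. Per the submitters' processing notes and the methods, the authors trimmed with Trimmomatic, took out rRNA and mitochondrial reads with Sortmerna, and aligned and counted with STAR 2.5.2b on GRCh38. They deposited raw counts per gene, which are the values used here. The column of STAR's strand-specific output they took is not given in the sources used here. Reads without a gene (unmapped, multimapping or ambiguous; 18.8% to 28.6% per file) stayed out of library sizes and tests. The deposited normalized counts were not used, because the columns of SDHBKO replicates 1 and 3 match each other's raw files.

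Genes with a mean normalized count (DESeq2 size factors) above 5 were tested, 7550 of 58051. After TMM scaling, edgeR 4.0.16 (quasi-likelihood, R 4.3.3) was run with all 8 samples and 3 groups in 1 fit (5 residual degrees of freedom). Benjamini-Hochberg adjustment covered all tested genes, and genes below 0.1 were called. The share of all tested genes at an unadjusted p below 0.05 was not computed, so that counts at that threshold are description only. A standard error is the size of the log2 fold change divided by the square root of F. Intervals and floors cover counting error and the fitted spread only. No pair of replicates was the same library (chi-squared per degree of freedom 2.09 to 9.58 within groups). Symbols, positions and exons came from GENCODE 44, on the same assembly in another release, and 56948 IDs matched. Promoter windows came from RefSeq, with 40 of 48 members matched.

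Alternatives were DESeq2 1.42.0, its size factors in edgeR, other filters, an adjusted p of 0.05, fits of only 2 groups, a replicate block and each sample left out. Members, classes and lists were chosen with earlier results of these data known. Genes named are SDHA and SDHB, members called in any comparison, the most abundant member of each class (1 measured member is not reported here, though it counts in totals), the 3 members with the largest fold change each way, the members next to the minimum, and called genes of the other lists. SLC25A3, SLC25A12, SLC25A13, SLC25A17, SLC25A21, SLC25A38, the members listed with 0 counts, MDH2, ACLY, IDH2, CYB5D2 and CAMTA2 were named after their values were seen.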

Additional observations from a re-analysis of the deposited data

How the results depend on the processing

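The number of SLC25 members called in SDHBKO against parental cells was 7 and ranged from 5 to 7 under DESeq2 size factors, filterByExpr, no filter and a fit of only 2 groups. It was 3 by DESeq2, where 13 of the 27 had an adjusted p, 2 at an adjusted p below 0.05 and 2 with the replicate block. Samples with the same number did not vary together (mean correlation of deviations -0.070, from -0.27 to 0.093 over 7 pairs), so that the numbers were not taken as pairs. With the block the median of the members was 0.0088, and in SDHBKOSDHAlow against parental 0 members were called, as with only 2 groups or at an adjusted p below 0.05. In SDHBKOSDHAlow against SDHBKO 2 members were called in each of these fits. Over all genes, the calls of 418, 114 and 69 in the 3 comparisons became 777, 64 and 7 with only 2 groups, 199, 59 and 12 with the block, 171, 64 and 13 at an adjusted p below 0.05, and 152 in the last without a filter. With 1 sample left out they ranged from 0 to 846, 39 to 375 and 4 to 173. The causes were not tested. With 1 sample left out the calls ranged from 0 to 7, 1 to 2 and 0 to 1 in the 3 comparisons, and the medians from -0.092 to 0.35, 0.022 to 0.18 and -0.045 to 0.19. SLC25A33 in SDHBKO against parental was -0.0018 with filterByExpr, and SLC25A14 was 0.12 with the block. Fitted values that changed sign with 1 sample left out were of members that passed in none of the comparisons. In SDHBKO against parental they ranged from -0.60 to 0.42 for SLC25A14, -0.43 to 0.68 for SLC25A33, -0.64 to 0.71 for SLC25A51 and -0.30 to 0.18 for SLC25A37. In SDHBKOSDHAlow against SDHBKO they were -0.22 to 0.69 for SLC25A14, -0.30 to 0.54 for SLC25A33, -0.42 to 0.052 for SLC25A37 and -0.072 to 0.76 for SLC25A51. In SDHBKOSDHAlow against parental they were -0.25 to 0.26 for SLC25A4, -0.28 to 0.59 for SLC25A14, -0.25 to 0.52 for SLC25A20, -0.30 to 0.88 for SLC25A33 and -0.35 to 0.98 for SLC25A51. The depth limits members near the minimum, where 95% intervals span more than 2 on the log2 scale.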
